A study of Mus musculus with 10 samples.

Results

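The autophagy and lysosome genes were followed in mouse lung tumours with and without a targeted glucose transporter gene. They were a fixed set of 40 genes, taken from the gene count table by symbol, out of 39017 genes in all. Each of the 40 symbols matched exactly 1 row, and all 40 passed the filter on low counts, which left 16216 genes tested. The lowest count of any of the 40 in any library was 160.

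RNA was sequenced from 10 tumours, 5 labelled as controls (KP) and 5 labelled as knockouts (KPG1). KP mice develop lung adenocarcinoma after Cre delivery, and KPG1 mice carry in addition 2 floxed copies of Slc2a1, which encodes the glucose transporter Glut1. For the KP mice 1 label gives a heterozygous floxed Slc2a1 and another gives wild type, so the controls may also have lost a copy of that gene. In both groups an adenovirus brought in Cre under the SPC promoter, so tumours started from cells making surfactant protein C, and male C57BL/6 mice were sampled 18 weeks and 6 days after the tumours were started. Macrodissected tumours were dissociated and depleted of cells carrying CD45, a leukocyte surface protein. The labels do not say that the libraries came from separate animals, so the p-values measure the spread between these libraries.

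Autophagy wraps cytoplasm in a double membrane, the autophagosome, and delivers it to the lysosome, where acid hydrolases break it down. The Ulk1 complex starts the process in response to low nutrients or energy, a lipid kinase around Pik3c3 and Becn1 marks the membrane, and a ubiquitin-like conjugation system attaches Atg8 proteins such as LC3 to it. The transcription factors TFEB, TFE3 and MITF switch on many genes of autophagosomes and lysosomes. Alveolar type 2 cells, from which such tumours can start, store surfactant in lamellar bodies, which are organelles related to lysosomes.

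Libraries held 32427029 to 49534284 counts. The first principal component held 28.0% of the variance, with KP 1 at -74.0 and KP 5 at 71.8 as its extremes. Slc2a1 had 71.7 to 127 CPM (counts scaled to library size with TMM factors) in KP and 40.8 to 66.8 CPM in KPG1, without overlap (two-sided exact permutation p = 0.00794, the smallest the rearrangements allow). Its log2 fold change in limma was -1.01 (SE 0.20, adjusted p = 0.0675). Sftpc, the defining marker of the labelled cell of origin, was at 5370 to 40180 CPM in the 10 libraries. All 11 alveolar type 2 markers had higher fitted values in KPG1. Of these 5 (45.5%) had an unadjusted p under 0.05 in limma, against 5.26% of all genes tested in that direction. The summed level of the 11 markers was 19651 to 64704 CPM in KP and 51339 to 92792 CPM in KPG1. Of 15 macrophage markers 14 had lower fitted values in KPG1, and only Chil3 (log2 fold change -1.29, unadjusted p = 0.00997 in limma) was under 0.05. That is 6.67% of the list, against 6.31% of all genes tested in that direction. The summed level of these 15 markers was nevertheless 611 to 3934 CPM in KP and 2216 to 6457 CPM in KPG1. Most of that sum was Lyz2, which alveolar type 2 cells also express. Of 6 leukocyte markers tested, out of 8, 4 had lower fitted values in KPG1, among them the neutrophil genes S100a8 (log2 fold change -1.84, unadjusted p = 0.00342 in limma) and S100a9 (-1.98, unadjusted p = 0.00115 in limma), and Ptprc, the gene of CD45, had 0.14. Only S100a8 and S100a9 were under 0.05, 33.3% of those tested, against 6.31% of all genes in that direction. The summed level of the leukocyte list was 12.2 to 34.6 CPM in KP and 10.2 to 20.3 CPM in KPG1. All 6 endothelial and all 7 fibroblast markers had higher fitted values, of which only Dcn (0.75, unadjusted p = 0.0366 in limma) was under 0.05. Dcn was 14.3% of the fibroblast list, against 5.26% of all genes in that direction. Of 7 epithelial markers 5 had lower fitted values. The keratin genes Krt8 (-0.67), Krt18 (-0.87, unadjusted p = 9.27e-05 in limma) and Krt19 (-0.79) had an unadjusted p under 0.05. They were 3 of the 7 (42.9%), against 6.31% of all genes in that direction. Cdh1 was at -0.10 and Cldn18 at -0.01, and Epcam (0.05) and Nkx2-1 (0.33) were above 0. The summed level of the epithelial list was 5089 to 6627 CPM in KP and 4149 to 4668 CPM in KPG1. Club, ciliated and erythroid markers had fitted values in both directions, with Cyp2f2 (2.11, unadjusted p = 0.00295 in limma) and Foxj1 (-1.19, unadjusted p = 0.0159 in limma) as the members with an unadjusted p under 0.05. No marker of these lists was at 0 in all libraries. In a bulk sample fewer cells of a type and less RNA per cell cannot be told apart, and the part of these markers in the values below was not tested.

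Of the 40 genes 0 passed an adjusted p of 0.05 in limma-voom, a threshold passed by 0.173% of all genes tested. The same count was 0 in edgeR and 1 in DESeq2, which called Ctsl and, in all, 3.46% of the genes it gave an adjusted p. At an unadjusted p under 0.05 the limma count was 5 of 40 (12.5%), against 11.6% of all genes. Each of these 5 genes, Ctsl, Sqstm1, Gla, Atg13 and Gabarapl1, was lower in KPG1, a direction held by 6.31% of all genes at that threshold. No member was higher at that threshold, against 5.26% of all genes. The count of 5 moved when single libraries were left out. It was 1 without KP 2, 1 without KPG1 3, 2 without KPG1 4 and 3 without KPG1 5. Without KP 1, KP 3, KP 4 or KPG1 2 it was 4, without KPG1 1 it was 5, and without KP 5 it was 7.

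Most of the 40 differences were small. Fitted values were higher in KPG1 for 16 genes and lower for 24, and their median log2 fold change was -0.06, where 52.7% of all genes were higher and the median was 0.02. A total of 16 genes differed by less than 0.1 on the log2 scale and 5 by at least 0.3. These limits were not counted over all genes, so they do not show whether the set differed less than other genes. The 95% confidence interval of each gene's own difference, not adjusted for the number of genes, lay within a 2-fold change in either direction for 38 of the 40 genes, against 67.2% of all genes tested. It lay within a 1.5-fold change for 27, a limit also not counted over all genes. The median reach of the interval to either side was 0.35 for the 40 genes and 0.49 for all genes tested. All genes were not matched to the 40 for count level, so these comparisons do not show a trait of the set. The 2 genes whose interval reached beyond 2-fold were Mitf (-0.87 to 1.10) and Ctsl (-1.17 to -0.43).

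**Figure D1:**
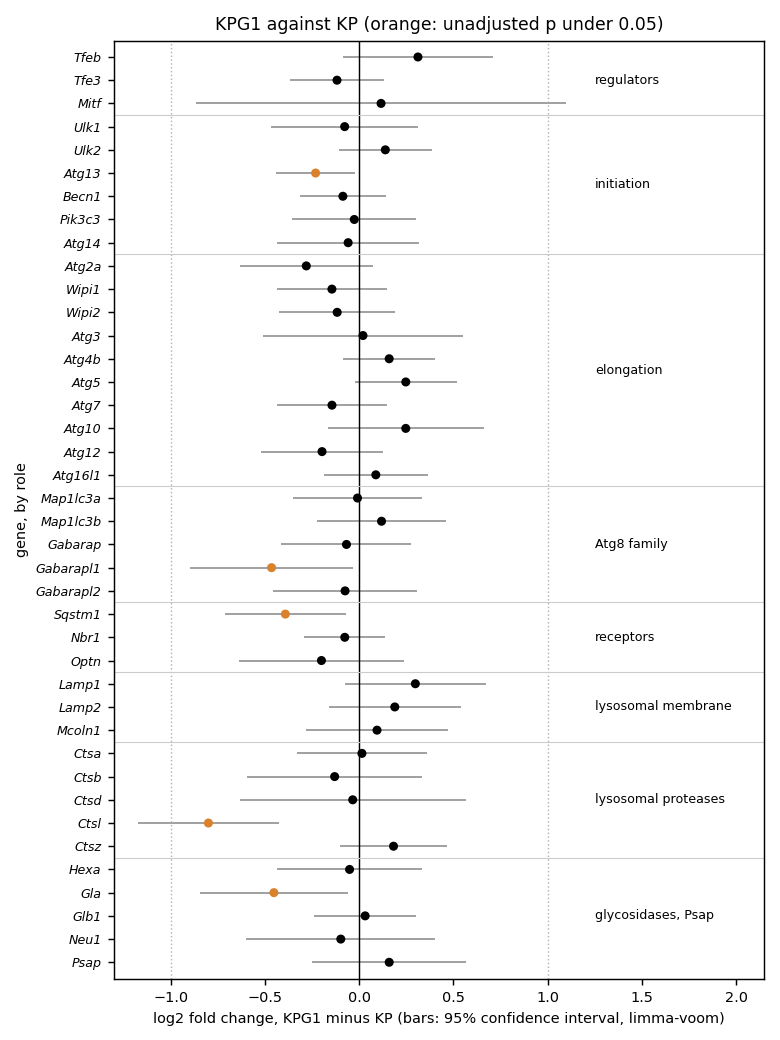
Log2 fold change of each of the 40 genes, KPG1 minus KP (x axis), with its 95% confidence interval from limma-voom, ordered by role (y axis). Orange points mark the 5 genes with an unadjusted p under 0.05, all of them left of 0, with Ctsl the lowest at -0.80.

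The 3 transcription factors were the group nearest to the top of the pathway and held the genes least expressed per kilobase of exon, Mitf and Tfeb. Tfeb had 2.53, 2.86, 3.38, 2.82 and 3.11 log2 CPM in KP 1 to KP 5 and 3.15, 3.05, 3.29, 3.47 and 3.29 in KPG1 1 to KPG1 5. The groups overlapped, with KP 3 and KP 5 among the KPG1 values and the 3 lowest values all from KP. The log2 fold change of Tfeb was 0.31 (SE 0.18, adjusted p = 0.541 in limma), and it was above 0 under every alternative that tested it, at 0.21 to 0.41.

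Tfe3 was at 5.99, 5.97, 6.05, 5.74 and 5.65 log2 CPM in KP and 5.63, 5.83, 5.71, 5.81 and 5.84 in KPG1. The 3 highest tumours were KP 1, KP 2 and KP 3, and KP 4 and KP 5 lay among the KPG1 tumours. Its log2 fold change was -0.12 (SE 0.11, adjusted p = 0.726 in limma).

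Mitf varied most of all 40 genes within KP. It had 3.94, 4.05, 3.27, 2.02 and 1.9 log2 CPM in KP and 3.76, 3.30, 2.55, 2.70 and 3.19 in KPG1, so both the 2 highest and the 2 lowest tumours were controls. Its log2 fold change of 0.12 (SE 0.45, adjusted p = 0.941 in limma) had the widest interval of the set. Per kilobase of exon, Tfe3 was the most expressed of the 3 factors at 6.40 ± 0.75 RPKM (SD, n = 5) in KP and 5.87 ± 0.36 RPKM in KPG1. Tfeb had 1.37 ± 0.31 and 1.68 ± 0.19 RPKM and Mitf 1.58 ± 0.98 and 1.44 ± 0.50 RPKM, so the levels of Tfeb and Mitf were not separated by their spread.

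These factors bind the letters CACGTG, and more strongly a longer form of them, in front of many lysosomal genes. Promoter windows of 300 bases, from 250 before to 50 after a start site (RefSeq, build GRCm38.p6), were used for 34 of the 40 genes, all but Pik3c3, Map1lc3a, Atg12, Ctsb, Atg16l1 and Becn1. CACGTG, which reads the same on both strands, stood in a window of 11 of the 34 genes (32.4%), against 8.09% of all genes and 7.15% of all windows in the table. The longer TCACGTGA, which contains it, stood in 5 of them, Atg3, Mcoln1, Ctsa, Ctsd and Gla, against 1.12% of all genes. Here all genes means every gene with a promoter window, expressed in these tumours or not, so the shares were not matched for expression. A match of letters is a description and not a bound site. The stretches below come from the 5 genes with at least 2 such matches before the start site, and from Ctsl, the gene with the smallest p, with CACGTG in capitals. Mcoln1, Ctsd and Ctsl are shown for 30 bases around the match nearest the start. These stretches lie before the RefSeq start site but inside the span of the gene in the GENCODE M21 annotation. For these genes, and for Gla and Atg3, the start in that annotation lies further upstream than the RefSeq start.
Lamp1 (chr8:13159088-13159160, plus strand): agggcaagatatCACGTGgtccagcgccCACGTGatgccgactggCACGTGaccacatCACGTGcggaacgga
Gla (chrX:134601182-134601244, minus strand): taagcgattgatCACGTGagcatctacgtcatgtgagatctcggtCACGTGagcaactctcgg
Atg3 (chr16:45158723-45158775, plus strand): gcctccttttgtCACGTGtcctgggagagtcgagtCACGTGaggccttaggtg
Mcoln1 (chr8:3500462-3500491, plus strand): aggcgccccgctCACGTGaccgcggcgcat
Ctsd (chr7:142387908-142387937, minus strand): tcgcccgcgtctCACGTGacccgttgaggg
Ctsl (chr13:64370739-64370768, minus strand): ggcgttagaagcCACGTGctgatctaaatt

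Genes with these letters had fitted values on both sides of 0. Of the 11 genes with CACGTG 6 were higher and 5 lower in KPG1 (median log2 fold change 0.01), and of the 23 genes without it 9 were higher and 14 lower, at a median of -0.08. Lamp1, with 4 matches between 61 and 15 bases before its RefSeq start, had one of the highest fold changes of the set at 0.30. Gla, with 2 matches 227 and 194 bases before its RefSeq start, had one of the lowest at -0.45.

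Among the 6 genes that start the autophagosome, fold changes ran from -0.23 for Atg13 to 0.14 for Ulk2, and 5 of 6 were below 0, of which all but Atg13 turned above 0 under at least 1 alternative. Atg13 (chromosome 2, 91674618 to 91710576, minus strand, mm10) encodes the partner that ties the Ulk kinases into their complex. It had 6.49, 6.58, 6.49, 6.45 and 6.49 log2 CPM in KP and 6.28, 6.41, 6.25, 6.14 and 6.27 in KPG1. Every KPG1 tumour lay below every KP tumour, and the gap between the groups was 0.04. Such a separation in the lower direction was found for 2 of the 40 genes, Atg13 and Ctsl, against 1.76% of all genes tested, and in the higher direction for 0, against 1.05%. KPG1 held 85.2% of the KP level of Atg13, a log2 fold change of -0.23 (SE 0.10, unadjusted p = 0.0324, adjusted p = 0.380 in limma).

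The kinases Ulk1 and Ulk2, the Pik3c3 lipid kinase and its partners Becn1 and Atg14 overlapped between the groups. Ulk2 had a log2 fold change of 0.14 (SE 0.11, adjusted p = 0.668 in limma), and the other 4 lay between -0.09 and -0.03. Ulk1 was at 6.95 log2 CPM in KP 5 and at 5.96 to 6.34 in the other 9 tumours.

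The 10 genes that extend and close the membrane were divided evenly, 5 higher and 5 lower. They include the lipid transfer protein Atg2a, the phosphoinositide readers Wipi1 and Wipi2, the protease Atg4b, and the conjugation enzymes and partners Atg3, Atg5, Atg7, Atg10, Atg12 and Atg16l1. The lowest was Atg2a at -0.28 (SE 0.16, adjusted p = 0.529 in limma) and the highest Atg5 at 0.25 (SE 0.12, adjusted p = 0.470 in limma). Atg2a was at -0.43 without KP 5 (adjusted p = 0.0948 in limma) and at -0.04 with the sample number as a covariate. Atg5 was 4.55 to 5.00 log2 CPM in KP and 4.91 to 5.13 in KPG1, and Atg2a 5.30 to 6.14 in KP and 5.37 to 5.76 in KPG1. Atg3, the enzyme that hands LC3 to its lipid, stood at 6.69 log2 CPM in KP 5 against 5.13 to 5.91 in the other 9 tumours. The products of Atg5, Atg12 and Atg16l1 work as a single complex, and the fitted values of their genes lay on both sides of 0.

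Of the Atg8 family, whose products coat the autophagosome, Map1lc3b encodes LC3B, the protein most used as an autophagosome marker. It had 7.36, 7.65, 7.70, 7.60 and 7.27 log2 CPM in KP and 8.02, 7.86, 7.50, 7.45 and 7.34 in KPG1. KPG1 1 and KPG1 2 were above all KP tumours, and the other 3 KPG1 tumours lay inside the KP range. Its log2 fold change was 0.12 (SE 0.16, adjusted p = 0.813 in limma). The counts of Map1lc3b carry an uncertainty, because 4 pseudogenes match its transcripts at 96.5% to 99.7% identity, the most abundant with a mean of 469 counts against 7705 for Map1lc3b.

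Gabarapl1 (chromosome 6, 129533160 to 129542346, plus strand) belongs to the GABARAP branch of the same family. It was at 7.18, 7.46, 7.25, 7.22 and 8.02 log2 CPM in KP and at 7.21, 7.08, 6.41, 6.96 and 7.14 in KPG1. The groups overlapped through KPG1 1, which lay above KP 1, and the ends of the range were KP 5 and KPG1 3. KPG1 held 72.4% of the KP level, a log2 fold change of -0.47 (SE 0.20, unadjusted p = 0.0374, adjusted p = 0.391 in limma). The other members, Map1lc3a, Gabarap and Gabarapl2, had fold changes from -0.08 to -0.01, and Gabarapl2 has 3 near-identical pseudogenes that were not analysed here.

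All 3 cargo receptors had fitted values below 0, under the 20 alternatives as well. They carry ubiquitinated cargo to LC3 and its relatives. Sqstm1 (chromosome 11, 50199366 to 50210827, minus strand), the gene of p62, had 8.38, 8.65, 8.67, 8.21 and 8.22 log2 CPM in KP and 8.37, 8.13, 7.80, 7.96 and 7.91 in KPG1. Of the KPG1 tumours 4 lay below all KP tumours, and KPG1 1 lay within the KP range. KPG1 held 76.2% of the KP level of Sqstm1, with a log2 fold change of -0.39 (SE 0.15, unadjusted p = 0.0213, adjusted p = 0.340 in limma). The adjusted p of Sqstm1 in limma was 0.072 with a weight per library and 0.679 with the sample number as a covariate. Nbr1 had a log2 fold change of -0.08 (SE 0.10, adjusted p = 0.808 in limma), and Optn, which encodes optineurin, lay between the other two receptor genes.

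**Figure D2:**
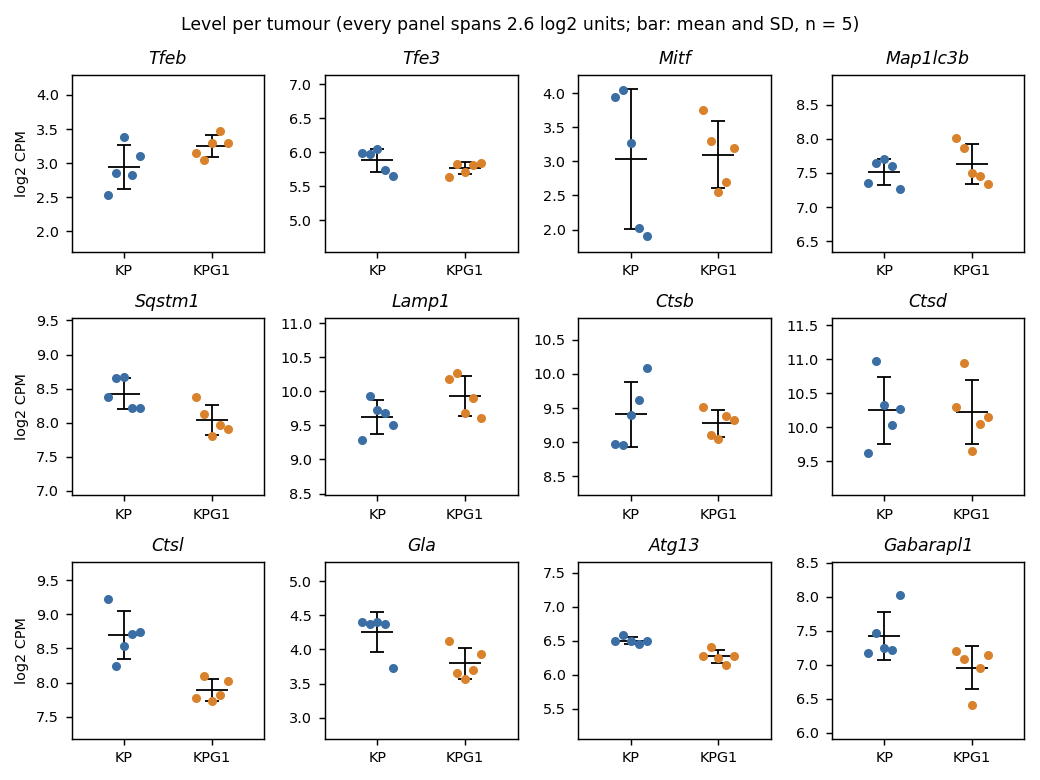
Log2 CPM (y axis) of 12 genes in each KP (blue) and KPG1 (orange) tumour, 1 point per tumour, with the mean and SD of 5 tumours as bars. Only Ctsl and Atg13 show no overlap between the groups, and Mitf spreads from 1.9 to 4.05 within KP.

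The 3 genes of the lysosomal membrane had fitted values above 0. Lamp2, however, turned below 0 with the sample number as a covariate. Mcoln1 turned below 0 with a weight per library, without KP 5, and without KP 1 and KP 5 together. Lamp1, which encodes a major glycoprotein of that membrane, was at 9.28, 9.93, 9.72, 9.68 and 9.51 log2 CPM in KP and 10.18, 10.27, 9.68, 9.90 and 9.61 in KPG1. KPG1 1 and KPG1 2 were above all KP tumours, and the other 3 KPG1 tumours lay within the KP range. Its log2 fold change was 0.30 (SE 0.17, adjusted p = 0.530 in limma), and 0.13 without KP 1 and KP 5, an alternative chosen after seeing the data. Lamp2, the related protein that also serves chaperone-mediated autophagy, and Mcoln1, a calcium channel of the lysosome, followed at lower values, with Mcoln1 at 0.09 (SE 0.17, adjusted p = 0.868 in limma).

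Of the 5 lysosomal proteases, Ctsl had the smallest p of the whole set, at rank 99 among all genes tested. Ctsl (chromosome 13, 64359337 to 64370890, minus strand) encodes the cysteine protease cathepsin L. It had 9.22, 8.25, 8.54, 8.71 and 8.74 log2 CPM in KP and 7.77, 8.10, 7.73, 7.82 and 8.02 in KPG1. Every KPG1 tumour was below every KP tumour, with KP 1 the highest and KP 2 the lowest of the controls. KPG1 held 57.4% of the KP level, a log2 fold change of -0.80 (SE 0.17, adjusted p = 0.0961 in limma).

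The difference in Ctsl kept its direction under all 20 alternatives, at -0.92 to -0.62. It passed the threshold in DESeq2 alone (adjusted p = 0.000948), and its adjusted p reached 0.359 once the labels' sample number was a covariate. Antisense and same-strand annotated transcripts overlap Ctsl, and the strand setting of the counting is not given in the sources used here. Its expression per kilobase was 65.3 ± 16.6 RPKM (SD, n = 5) in KP and 36.7 ± 4.28 RPKM in KPG1.

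The other cathepsins had fitted values nearer to 0. Ctsb, another cysteine protease, was at 8.97, 8.96, 9.40, 9.62 and 10.08 log2 CPM in KP and 9.52, 9.10, 9.04, 9.39 and 9.32 in KPG1. All KPG1 tumours lay inside the KP range. Its log2 fold change was -0.13 (SE 0.21, adjusted p = 0.854 in limma).

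Ctsd, the aspartic protease cathepsin D, had 9.63, 10.98, 10.33, 10.04 and 10.27 log2 CPM in KP and 10.30, 10.94, 9.65, 10.05 and 10.16 in KPG1. In each group 1 tumour stood high, KP 2 and KPG1 2, and 1 stood low, KP 1 and KPG1 3. The log2 fold change was -0.03 (SE 0.27, adjusted p = 0.975 in limma). Ctsd shares 808 exon bases on its own strand with Gm49369, which has no row among the deposited counts. How reads there were counted was not tested. Ctsz, which encodes a carboxypeptidase, was the highest of the group at 0.18 (SE 0.13, adjusted p = 0.625 in limma), and Ctsa, the protective protein of Neu1 and Glb1, differed by 0.01.

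Of the 5 genes of glycoconjugate breakdown, fold changes ran from -0.45 for Gla to 0.16 for Psap. Gla (chromosome X, 134588149 to 134601125, minus strand) encodes alpha-galactosidase A, the enzyme missing in Fabry disease. It was at 4.40, 4.38, 4.41, 4.38 and 3.73 log2 CPM in KP and 4.12, 3.66, 3.57, 3.70 and 3.94 in KPG1. All 5 KPG1 tumours lay below KP 1 to KP 4, and KP 5 lay among them. KPG1 held 73.1% of the KP level, a log2 fold change of -0.45 (SE 0.18, unadjusted p = 0.0278, adjusted p = 0.365 in limma). With the sample number as a covariate the fold change was -0.09 (adjusted p = 0.906 in limma), and over the alternatives that tested it the value ran from -0.61 to -0.09. With a weight per library the adjusted p of Gla was 0.054 in limma.

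Psap encodes prosaposin, from which the activators of these enzymes are cut. It was at 9.52 log2 CPM in KPG1 1 and 8.94 to 9.01 in the other KPG1 tumours, and 8.51 to 9.48 in KP, with a log2 fold change of 0.16 (SE 0.19, adjusted p = 0.786 in limma). Over the alternatives the value for Psap ran from 0.0052 with a weight per library to 0.47 with the sample number as a covariate. Hexa, Glb1 and Neu1, which encode a hexosaminidase subunit, beta-galactosidase and a sialidase, lay between -0.10 and 0.03. Glb1 shares 165 exon bases on its own strand with Tmppe, so reads there could have been divided between them.

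**Figure D3:**
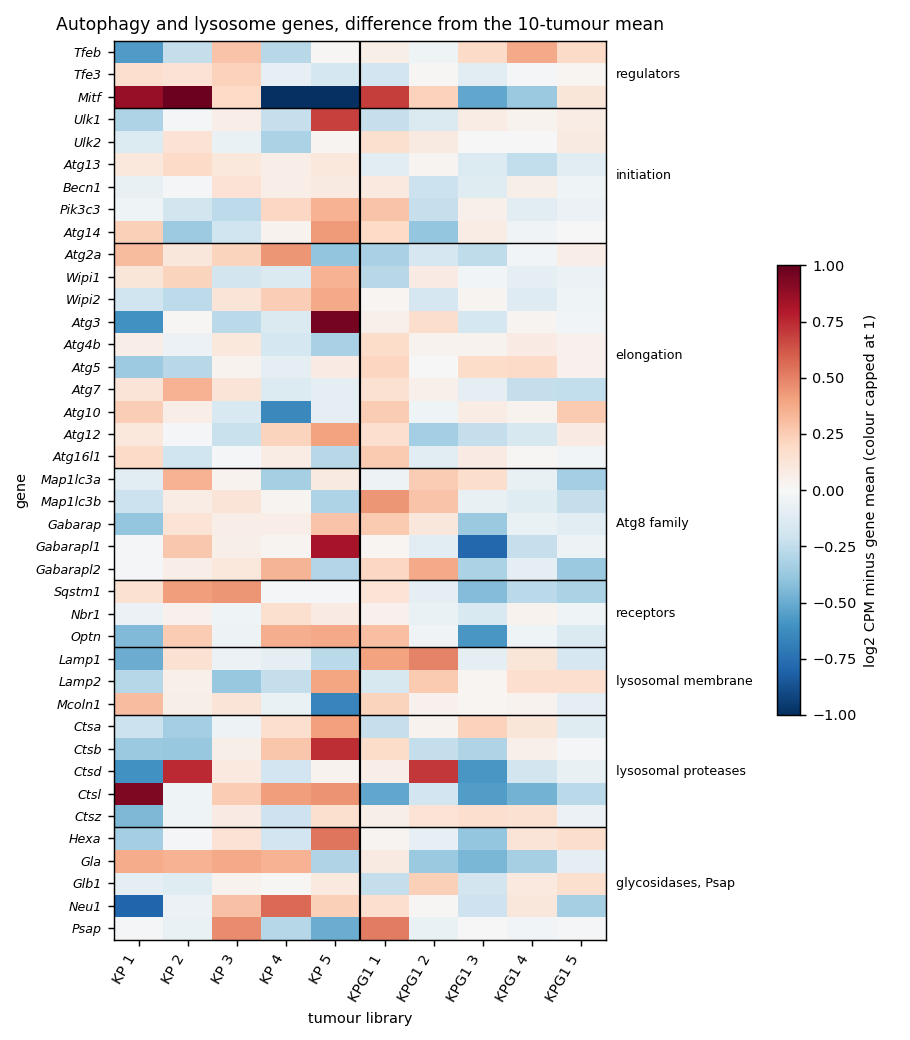
Log2 CPM minus the gene's mean over the 10 tumours (colour, capped at 1 in either direction) for the 40 genes (rows, by role) in 5 KP and 5 KPG1 tumours (columns). KP 5 holds the highest value of 14 genes and the lowest of 7, and KP 1 the lowest of 9.

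Tumours of the same group differed among themselves. The mean deviation of all 40 genes from their own averages ran from -0.07 in KP 1 to 0.09 in KP 5 and from -0.14 in KPG1 3 to 0.09 in KPG1 1. KP 5 held the highest level of 14 of the 40 genes (35.0%, against 22.2% of all genes), and KP 1 the lowest level of 9 (22.5%, against 16.7%). KP 5 also held the lowest level of 7 (17.5%, against 20.2%), so it was an extreme tumour in both directions. KPG1 3 held the lowest level of 7 (17.5%, against 7.15%). The spread within KP was larger than within KPG1 for 34 of the 40 genes, and for 73.5% of all genes tested. The median SD of the 40 genes was 0.27 log2 CPM in KP and 0.18 in KPG1, below the medians of all genes, 0.39 and 0.26. All genes were not matched to the 40 for count level here. Averaged over the 3 cargo receptors the deviation was 0.11 ± 0.14 (SD, n = 5) in KP and -0.11 ± 0.20 in KPG1, and the groups overlapped, with KPG1 1 at 0.16. For the 3 lysosomal membrane genes it was -0.10 ± 0.11 in KP and 0.10 ± 0.12 in KPG1, again with overlap.

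Per kilobase of exon the mean levels of the 40 genes over the 10 tumours spanned 1.51 to 537 RPKM. Ctsd was first at 544 ± 195 RPKM (SD, n = 5) in KP and 530 ± 185 RPKM in KPG1, and Lamp1 second at 299 ± 49.6 and 370 ± 75.3 RPKM. Psap, Gabarap, Ctsz and Ctsb followed, with means between 110.0 and 192 RPKM over the 10 tumours. Sqstm1 was next, at 103 ± 16.03 RPKM in KP and 78.9 ± 12.6 RPKM in KPG1. The genes of initiation and elongation lay between 4.30 RPKM for Atg10 and 19.2 RPKM for Atg13, a range that also held the lysosomal genes Glb1, Neu1 and Gla, and Mcoln1 lay just below it at 4.28 RPKM. Mitf and Tfeb were the last, at means of 1.51 and 1.53 RPKM. Of the 39 pairs of neighbours in this order 38 had overlapping ranges over the 10 tumours, and the exception was Mcoln1 above Tfeb.

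**Figure D4:**
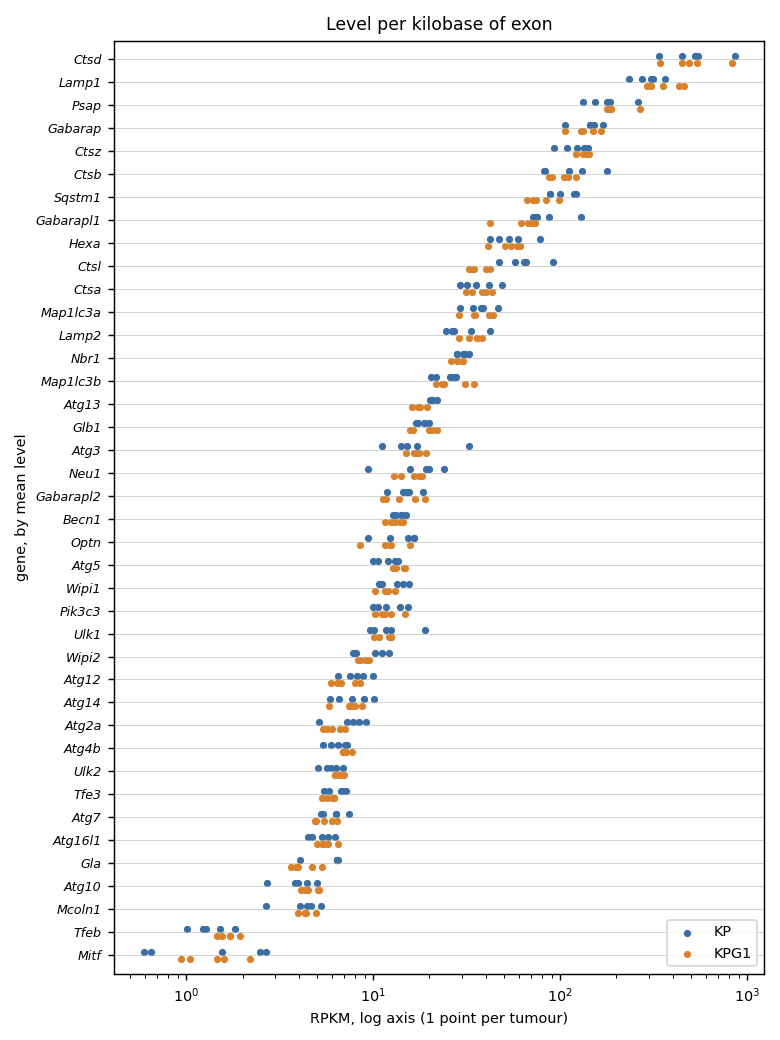
RPKM (x axis, log scale) of the 40 genes in each KP (blue) and KPG1 (orange) tumour, ordered by mean level (y axis). Ctsd and Lamp1 lead, and Mitf and Tfeb stand at the bottom, at means of 1.51 and 1.53 RPKM.

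Genes of the same pathways outside the set gave the same count of 0 at the adjusted threshold in limma. Of 138 further genes tested, 82 were higher (59.4%, against 52.7% of all genes) and 56 lower in KPG1 (median log2 fold change 0.04). Of the 138, 11 (7.97%) had an unadjusted p under 0.05, against 11.6% of all genes. The edgeR test called 0 of them and DESeq2 called 3 (2.2%, against 3.46% of all genes), Atg9b, Cln3 and Atp6v1g3. Among 36 other autophagy genes 3 were higher and 2 lower at an unadjusted p under 0.05 (13.9%). Atg9b, a relative of the membrane-lipid scramblase Atg9a, had the lowest value, at 4.48 ± 0.66 log2 CPM in KP and 2.91 ± 0.60 in KPG1 (SD, n = 5), a log2 fold change of -1.61 (SE 0.37, adjusted p = 0.142 in limma). It passed the threshold in DESeq2 (adjusted p = 0.000518), with a weight per library (0.0411) and without KP 5 (0.0282). Vmp1, which encodes a protein of the endoplasmic reticulum needed to form autophagosomes, had a log2 fold change of -0.63 (SE 0.20, adjusted p = 0.257 in limma).

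Of 50 other lysosomal genes 33 were higher (66.0%, against 52.7% of all genes). At an unadjusted p under 0.05, 2 were higher and 2 lower (8.00%, against 11.6% of all genes). Cln3, the membrane protein mutated in juvenile Batten disease, had a log2 fold change of -0.39 (SE 0.12, adjusted p = 0.257 in limma), and Arsb, a sulfatase, 0.65 (SE 0.22, adjusted p = 0.295 in limma). The proton pump that acidifies the lysosome, the V-ATPase, had 14 of 21 tested subunit and accessory genes higher (66.7%, against 52.7%). Of these 21 genes 2, Atp6v1g3 and Atp6v1h, had an unadjusted p under 0.05 (9.52%, against 11.6%). Atp6v1g3 had a log2 fold change of 0.89 (SE 0.28, adjusted p = 0.257 in limma) and Atp6v1h 0.33 (SE 0.11, adjusted p = 0.303 in limma). The nutrient-sensing genes of mTORC1, its regulators and AMPK, which control the Ulk kinases and TFEB, were 17 higher and 14 lower. At an unadjusted p under 0.05 their count was 0 of 31, against 11.6% of all genes. Atp6v1b1, with at most 35 counts in a library, and Rragb, with at most 89, were not tested.

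**Figure D5:**
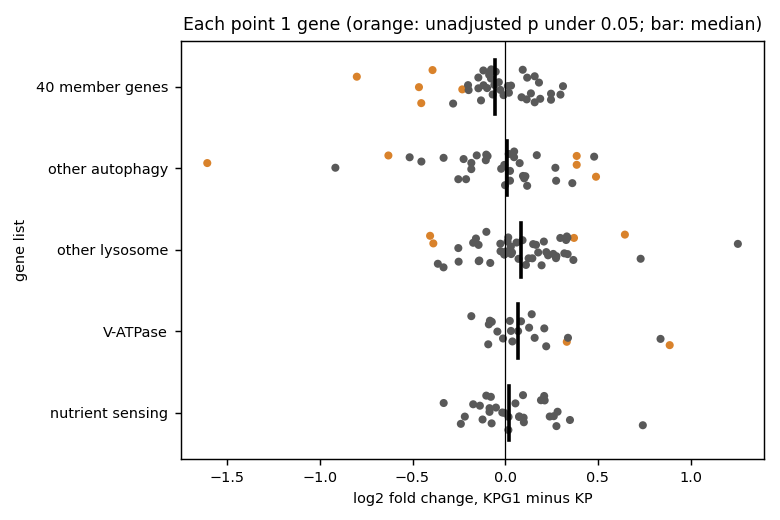
Log2 fold change, KPG1 minus KP (x axis), of the 40 genes and of 4 further lists (y axis), 1 point per gene, with the median of each list as a bar. Orange points have an unadjusted p under 0.05, and the medians lie between -0.06 and 0.08.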

How the data were processed

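Per the labels, a stranded mRNA kit gave the libraries, which were read from a single end. According to the submitters' processing notes, bcl2fastq 2.17, cutadapt 1.4.2, HISAT2, featureCounts 1.4.4 and edgeR were used with the build mm10. The deposited values are raw counts of reads for each Ensembl gene, and the authors deposited them per library and as a joint table, of which 390170 of 390170 values were equal. Strand setting and annotation release are not given in the sources used here. The deposited log2 values were not used. Some engineered alleles of these mice are not reported here.

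Genes were kept by filterByExpr, scaled by TMM (edgeR 4.0.16) and fitted with voom and limma 3.58.1 in R 4.3.3, with genotype as the only term and Benjamini-Hochberg adjustment over all genes tested (threshold 0.05). In the study genes were filtered by TPM instead. Log2 CPM has a prior count of 2, and RPKM divides TMM-scaled CPM by the union of exons in GENCODE M21. Counts ranged from 32427029 to 49534284 per library, and a count of 0 allows up to 3, which covers counting error only. edgeR's quasi-likelihood test and DESeq2 1.42.0 were alternatives, beside other scalings and filters, weights, a replicate block, the sample number and leaving out libraries. Near-identical copies were searched with blastn 2.17.0 (at least 95% over 300 bases). Scripts were tested on simulated data.

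The genes, lists and tests were chosen with earlier results of these data known. Fold changes are given gene by gene for 8 genes set by name, for those with an unadjusted p under 0.05 and for the ends of each role; of the other lists, up to 2 genes with the smallest p were named.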

Additional observations from a re-analysis of the deposited data

Results flagged for a closer look

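In groups of 5 tumours, a tumour was marked when its gap to the nearest other tumour exceeded 0.71 of the range of its group. Of 100 groups searched 6 were marked, where chance gives 5, and no cause was tested. Atg13 was at 6.58 log2 CPM in KP 2 against 6.45 to 6.49 in the other KP tumours. Gla was at 3.73 log2 CPM in KP 5 against 4.38 to 4.41. In KPG1 1 the level of Psap was 9.52 log2 CPM, and the remaining KPG1 tumours had 8.94 to 9.01. The mean deviation of the 6 initiation genes was 0.28 in KP 5 against -0.04 to -0.03, and that of the 10 elongation genes was 0.10 in KP 5 against -0.04 to 0.00. The mean deviation of the 3 lysosomal membrane genes was 0.092 in KP 2 against -0.18 to -0.10.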

How the results depend on the processing

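The 40 genes were refitted under 20 alternatives, 1 of which, leaving out KP 1 and KP 5 together, was chosen after seeing the data. A filter at a mean CPM of at least 20 left Tfeb, Mitf, Atg10 and Gla untested. Of 796 recomputed fold changes 65 changed sign, in 18 genes whose main values were at most 0.19 in size, and 1 came to pass the threshold, Ctsl in DESeq2. The median fold change of the set moved by less than the spread between tumours under every alternative run. The causes were not tested, except that a filter or fewer libraries change what enters the fit.

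The number of the 40 genes past the threshold was 0 in every alternative but DESeq2, which gave 1. Of the other pathway genes DESeq2 called 3 and a weight per library 1, and leaving out single libraries gave 0 to 1. Over all genes the count of 28 became 548 in DESeq2, 43 without a filter, 228 with a weight per library, 8 with the sample number as a covariate and 51 without KP 1 and KP 5, and 4 to 294 when single libraries were left out, highest without KP 5. Slc2a1 passed the threshold in DESeq2 (-1.04), with a weight per library (-1.13), without KP 1 and KP 5 (-1.29) and without KP 5, with values of -1.14 to -0.92 over single libraries left out.

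No pairing of tumours by replicate number was seen, though so few tumours cannot exclude it. Correlations of same-numbered deviations were -0.16 to 0.08, and 1 of 5 tumours matched its own number best. With the replicate block 5 genes passed over all genes and 0 of the 40, and Mitf turned to -0.037.

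Mitf was -0.13 in edgeR, -0.14 in DESeq2, -0.29 with a weight per library and -0.20 to 0.36 over single libraries left out. With a weight per library and without KP 1 and KP 5, Map1lc3b was -0.0085 and -0.029, and Mcoln1 -0.020 and -0.0088. Over single libraries left out Mcoln1 ran from -0.0785 to 0.19, Ctsb from -0.25 to 0.022 and Ctsd from -0.22 to 0.15. At an unadjusted p under 0.05 the count of 5 became 8 with a weight per library and 3 with the sample number. Only KP 5 has a sample number below that of any KPG1 tumour, so this number and the genotype cannot be told apart well.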
